A study of Homo sapiens with 12 samples.

Results

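The Notch receptors, ligands and targets described here were 10 genes, matched by gene name in the deposited expression tables of the head and neck squamous cell carcinoma (HNSCC) cell lines SCC15 and SCC25. They comprised the receptors NOTCH1, NOTCH2 and NOTCH3, the ligands JAG1, JAG2 and DLL1, and the target genes HES1, HES4, HEY1 and NRARP. All 10 were listed in both tables, out of 29657 genes in the SCC15 table and 31055 in the SCC25 table. Total RNA was sequenced from both lines, labelled as wild-type oral squamous cells, after 24 h with squamocin or with its solvent DMSO, with 3 libraries for each treatment and line and 12 in all. Squamocin, called ACGs in the sample labels, is an annonaceous acetogenin, a plant compound that blocks mitochondrial Complex I. Each line is a single tumor-derived culture, and the labels do not say whether its 3 libraries per treatment came from separate cultures, so the p-values measure the spread between these libraries, which may be technical.

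Notch signaling passes between neighboring cells. A Delta-like or Jagged ligand on one cell binds a Notch receptor on the next, the receptor is cut by ADAM10 and then by the γ-secretase complex, and its intracellular domain enters the nucleus and joins the DNA-binding protein RBPJ and a Mastermind-like coactivator to switch on genes such as HES1, HES4, HEY1 and NRARP. In stratified squamous epithelium the pathway is known for promoting the exit of basal cells into differentiation, and its receptors are often mutated in squamous carcinomas.

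The HES1 and HES4 genes are shown by sequence because they were the members with more transcript after squamocin in both lines, and because they shared an RBPJ motif near their starts. Promoter windows from RefSeq (GRCh38.p14), reaching from 250 bases before to 50 bases after the gene start, matched 8 of the 10 members, and DLL1 and HEY1 had no entry. The 7 letters of the RBPJ site, GTGGGAA, searched on both strands, lay in the windows of HES1 and HES4 and of no other of the 8 members, and in 6.25% of all 35116 windows. In HES1 the site covered bases -85 to -79 before the start, and in HES4 bases -77 to -71. The following stretches of 30 bases run 5′ to 3′ from 6 bases before each site, with every TGGGAA, the core of the site, in capitals. The HES1 stretch was chr3:194136057-194136086 on the plus strand, upstream of the annotated exons. The HES4 stretch was chr1:1000151-1000180 on the minus strand, and its site crossed the start of the longest annotated HES4 transcript at position 1000172.
HES1: gttactgTGGGAAagaaagttTGGGAAgtt
HES4: gcgagtgTGGGAAagaatgcggagccgggt
The stretches had the same base at 18 of 30 positions, and the HES1 stretch held a second core at bases -70 to -65. The core alone, a choice made after the data were seen, occurred in 24.0% of all windows and again in HES1 and HES4 only among the 8. The HES1 sequence upstream of the start, chr3:194135898-194136147 on the plus strand, is given with both cores in capitals, since it also holds CACNAG sites, the N box bound by HES proteins.
HES1 upstream: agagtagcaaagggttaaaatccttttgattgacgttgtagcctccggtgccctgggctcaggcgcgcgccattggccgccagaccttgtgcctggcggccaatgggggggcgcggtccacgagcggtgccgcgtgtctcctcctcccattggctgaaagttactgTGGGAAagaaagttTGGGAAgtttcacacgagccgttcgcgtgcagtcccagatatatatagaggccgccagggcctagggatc
A CACNAG match was found in 5 of the 8 member windows (NOTCH1, NOTCH2, NOTCH3, HES1 and NRARP) and in 38.0% of all windows. CACGNG, the related class C letters, which overlap CACNAG where the site reads CACGAG, was found in 6 of the 8 (NOTCH2, NOTCH3, JAG1, JAG2, HES1 and NRARP) and in 30.5% of all windows. A letter match is a description of the sequence and does not show that a factor was bound.

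Each deposited value was a gene's read count over the size factor of its library, with factors set line by line, and is called a normalized count. Libraries held 16665563 to 22748845 reads on genes. Squamocin replicate 3 of SCC15 stood apart from the other libraries of its group, with a chi-square per degree of freedom of 64.1 against replicate 1 and 56.8 against replicate 2, while all other pairs of replicates lay between 1.67 and 9.95. The SCC15 log2 fold changes of the members and named pathway genes, and the counts of the lists, are therefore also given without it. Scaling also matters: with the authors' size factors the median log2 fold change of all genes tested was 0.012 in SCC15 and -0.015 in SCC25, whereas with equal library totals it was -0.48 and -0.22. Of 10 squamous markers, 10 averaged at least 10 normalized counts in SCC25 and 7 in SCC15, where KRT5 did not exceed 13.1, DSG3 2.56 and DSC3 2.32. TP63 and EPCAM were also low in SCC15, at 6.22 to 22.7 and 2.28 to 14.9, against 4466 to 7030 and 2918 to 6067 in SCC25. The summed squamous markers ran in SCC15 from 120280 to 126600 under DMSO and from 220470 to 379860 under squamocin, and in SCC25 from 31596 to 32084 and from 63536 to 64670. KRT17 made up most of the sum in SCC15. Of 5 fibroblast markers, all listed, 4 in SCC15 and 1 in SCC25 averaged at least 10. Their sum ran in SCC15 from 719 to 794 under DMSO and from 483 to 488 under squamocin. Over all libraries of SCC15, COL3A1 ran from 248 to 474, COL1A1 from 97.05 to 157.8 and DCN from 68.4 to 140.5. The sum in SCC25 ran from 571 to 604 and from 891 to 1055, mainly COL1A1, with DCN at 0 to 0.900. Of 4 endothelial markers, 2 were listed in SCC15 and 4 in SCC25. Their sums ran from 158 to 178 and from 66.1 to 77.1 in SCC15, and from 233 to 296 and from 19.8 to 37.7 in SCC25. Over all libraries of SCC25, CDH5 ran from 10.4 to 179.7, PECAM1 from 0 to 81.85 and VWF from 9.36 to 41.4, and KDR did not exceed 1.80. PECAM1 ran from 63.8 to 173.7 in SCC15. The 3 leukocyte markers listed in each table summed to at most 34.2 in any library. These marker levels moved with treatment, and their part in the results below was not tested. In RNA from whole cultures, fewer cells that express a gene and less of its RNA per cell cannot be told apart.

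The treatments were compared within each line with limma, on normalized counts that were increased by 1 and taken to log2, for genes that averaged at least 10, with adjusted p-values over all genes tested in the table and a threshold of 0.05. In SCC15, 9 of the 10 members were tested. HES1 and HES4 rose and NOTCH2 and NOTCH3 fell, so that 2 members were called higher, where 30.9% of the 15902 genes tested were, and 2 lower, where 30% were. With equal library totals 2357 genes were higher and 8033 lower, in place of 4921 and 4773, and 5 members were lower. In SCC25 all 10 members were tested. HES1, HES4, HEY1 and NRARP rose and NOTCH1, NOTCH3, JAG1, JAG2 and DLL1 fell, which makes 4 higher against 38.3% of the 16539 genes tested and 5 lower against 38.5%. With equal library totals 5032 genes were higher and 7838 lower, in place of 6335 and 6367, and 2 members were higher. HES1 and HES4 were higher in both lines, as were 22.1% of the 14454 genes tested in both, and NOTCH3 was lower in both, as were 18.6%. The libraries of the treatments did not overlap for 6 members in SCC15, where this held for 70.6% of the genes tested, and for all 10 in SCC25, where it held for 79%. The counts of members are to be read against these shares.

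**Figure D1:**
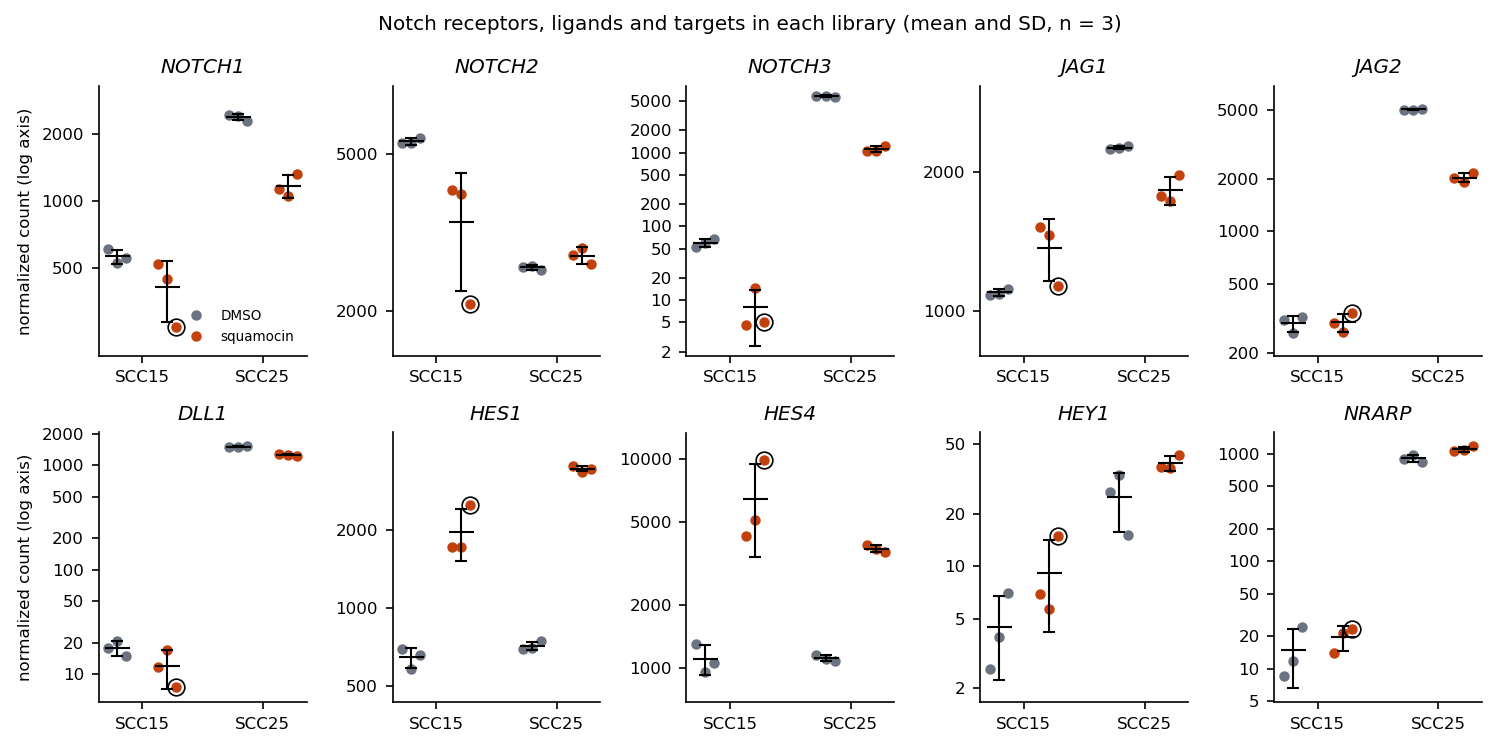
Normalized counts of the 10 genes on a log axis for each library, with DMSO in grey, squamocin in orange, and black bars for the mean and SD of 3 libraries. The ringed point is squamocin replicate 3 of SCC15, which was the highest library of its group for HES1 (2479) and HES4 (9883) and the lowest for NOTCH2 (2080) and NOTCH1 (272), and the bars of NOTCH3 lie lower with squamocin in both lines.

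The receptor NOTCH3 had the largest fold decrease of the members in both lines. NOTCH3 (ENSG00000074181, chromosome 19, 15159038 to 15200981, minus strand, GRCh38) encodes a receptor best known in vascular smooth muscle that is also made by squamous cells. In SCC25 it was abundant, with 5860, 5946 and 5672 normalized counts in the DMSO libraries and 1056, 1064 and 1249 in the squamocin libraries. The groups were far apart, and the lowest DMSO library lay well above the highest squamocin library. NOTCH3 fell by 2.38 on the log2 scale (SE 0.061, adjusted p = 4.92e-12), which left it 5.20-fold lower. In SCC15 it was a rare transcript already with DMSO, at 52.9, 60.1 and 67.2 normalized counts, and squamocin libraries held 4.64, 14.8 and 4.98. These values rest on 62 to 77 reads per DMSO library and on 4, 13 and 4 reads per squamocin library. The groups again did not overlap, and NOTCH3 fell by 2.91 on the log2 scale (SE 0.42, adjusted p = 0.000939), or 7.50-fold lower. It was -2.69 without squamocin replicate 3. NOTCH3 passed the threshold under each of the alternatives that could test it, in both lines. Of all genes tested, 1.09% had a lower log2 fold change than NOTCH3 in SCC15 and 3.40% in SCC25.

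NOTCH2 (ENSG00000134250, chromosome 1, 119911553 to 120069626, minus strand) is a broadly expressed receptor, and parts of it are shared with the NOTCH2NL genes, of which NOTCH2NLA alone was listed, at 71.3 to 74.7 normalized counts on average with DMSO. In SCC15 the DMSO libraries held 5317, 5312 and 5491 normalized counts and the squamocin libraries 4046, 3962 and 2080. Squamocin replicate 3 was low even within its group, but replicates 1 and 2 also lay below every DMSO library. The log2 fold change was -0.74 (SE 0.24, adjusted p = 0.0310). Without squamocin replicate 3 NOTCH2 fell by 0.42 and passed (adjusted p = 8.93e-09), whereas leaving out any 1 DMSO library gave -0.75 to -0.72, which did not pass. In SCC25 the values were 2593, 2607 and 2543 with DMSO and 2771, 2894 and 2628 with squamocin. The squamocin libraries all lay above the DMSO libraries by a narrow margin, with a log2 fold change of 0.098 (SE 0.046, adjusted p = 0.0692) that did not pass. The sign of this small difference depended on scaling, being 0.13 without squamocin replicate 3 and -0.11 with equal library totals, both past the threshold.

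NOTCH1 (ENSG00000148400, chromosome 9, 136494433 to 136545786, minus strand) is the receptor most often mutated in HNSCC. In SCC25 it had 2427, 2414 and 2283 normalized counts with DMSO and 1134, 1048 and 1317 with squamocin, with no overlap. NOTCH1 fell by 1.03 on the log2 scale in SCC25 (SE 0.072, adjusted p = 4.06e-08), or 2.04-fold lower. In SCC15 it had 609, 528 and 556 with DMSO and 519, 447 and 272 with squamocin. The highest squamocin library lay just below the lowest DMSO library, and the log2 fold change of -0.50 (SE 0.22, adjusted p = 0.0888) did not pass. Without squamocin replicate 3 the change was smaller, -0.23, yet passed (adjusted p = 0.0165). The remaining libraries varied less. With equal library totals it was -0.996 and passed.

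**Figure D2:**
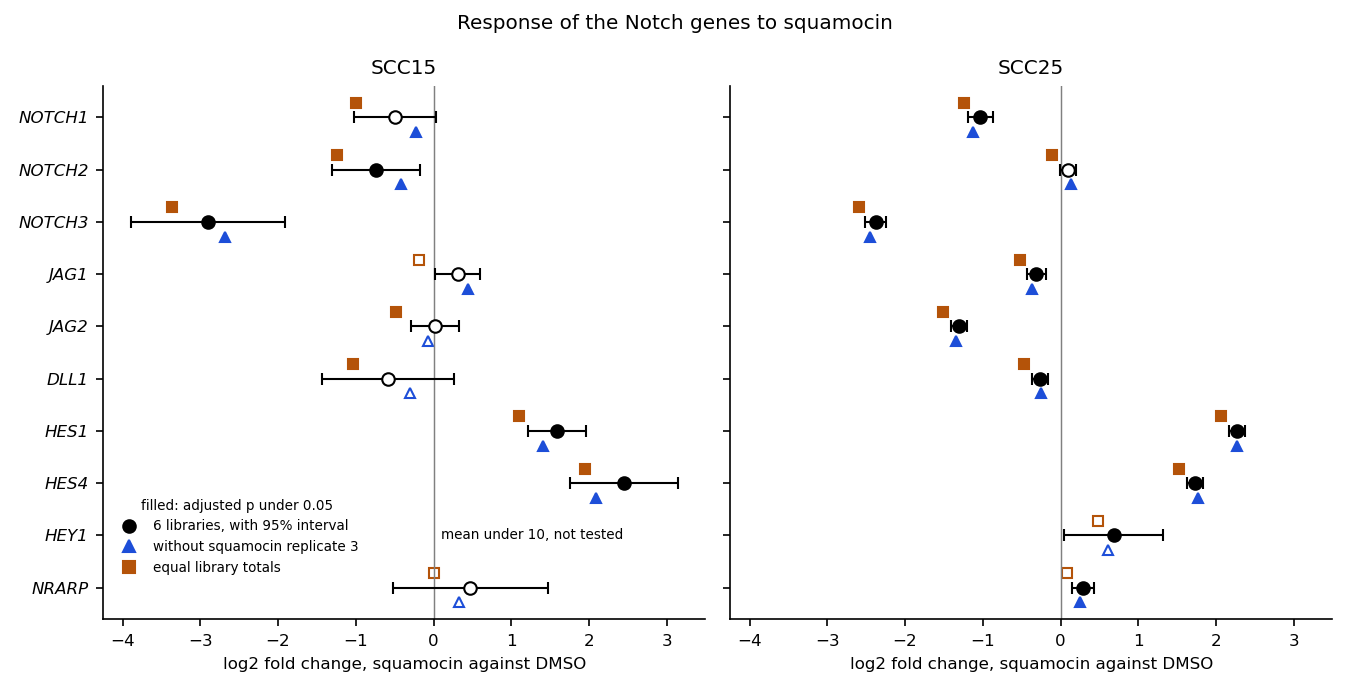
Log2 fold change of squamocin against DMSO for each gene in SCC15 (left) and SCC25 (right), as circles with the 95% interval, triangles for the value without squamocin replicate 3 of that line, and squares for equal library totals, filled where the adjusted p was under 0.05. NOTCH3, HES1 and HES4 keep filled symbols on the same side of 0 in both lines, and JAG1 and JAG2 in SCC15 and NOTCH2 in SCC25 have symbols on both sides.

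The mixture of receptors changed in SCC25, while NOTCH2 stayed the leading receptor of SCC15. Shares were computed from the counts per kilobase of exon (GENCODE release 44, within the table's gene bounds) and do not depend on the size factor of the library, since all 3 receptors come from the same library. In SCC25 NOTCH3 made up 61.8% ± 0.17 of the summed receptor level with DMSO and 28.6% ± 1.8 with squamocin (SD, n = 3). NOTCH2 made up 18.9% ± 0.20 and then 48.7% ± 3.7, and NOTCH1 19.3% ± 0.25 and then 22.7% ± 2.0. NOTCH2 therefore took the leading place of NOTCH3, with no overlap between the treatments, although its own level differed little. The summed receptor level per kilobase in SCC25 ran from 977 to 1021 with DMSO and from 408 to 433 with squamocin. In SCC15 NOTCH2 held 88.3% ± 0.60 with DMSO and 87.6% ± 0.73 with squamocin, while NOTCH3 went from 1.43% ± 0.16 to 0.309% ± 0.17. The summed level in SCC15 ran from 439 to 456 with DMSO and was 340, 329 and 176 in the squamocin libraries, the last being replicate 3.

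Of JAG1, JAG2 and DLL1, JAG2 differed most in its response between the lines, and the response of JAG1 also differed. JAG2 (ENSG00000184916, chromosome 14, 105140981 to 105168824, minus strand) encodes a Jagged ligand of stratified epithelia. In SCC25 it had 5039, 5005 and 5105 normalized counts with DMSO and 2026, 1934 and 2165 with squamocin. No library of one treatment came near the other, and JAG2 fell by 1.31 on the log2 scale (SE 0.047, adjusted p = 9.60e-11), or 2.47-fold lower. In SCC15 it had 307, 259 and 320 with DMSO and 296, 264 and 337 with squamocin, with the groups fully mixed. The log2 fold change there was 0.018 with a 95% interval from -0.30 to 0.33 (adjusted p = 0.916). Its sign is not fixed, since it was -0.071 without squamocin replicate 3 and, once the libraries were scaled to equal totals, -0.48 and past the threshold.

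JAG1 (ENSG00000101384, chromosome 20, 10637684 to 10673999, minus strand) encodes the other Jagged ligand. SCC25 libraries held 2251, 2260 and 2278 normalized counts with DMSO and 1779, 1731 and 1976 with squamocin, without overlap, a fall of 0.31 on the log2 scale (SE 0.053, adjusted p = 0.000168). In SCC15 it had 1087, 1091 and 1120 with DMSO and 1523, 1467 and 1134 with squamocin. Replicates 1 and 2 were clearly above DMSO and replicate 3 barely so. The log2 fold change of 0.31 (SE 0.12, adjusted p = 0.0593) did not pass, became 0.44 and passed without replicate 3 (adjusted p = 1.92e-07), and was -0.19 with equal library totals.

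DLL1 (ENSG00000198719, chromosome 6, 170282206 to 170306565, minus strand) encodes a Delta-like ligand known in basal keratinocytes. The SCC25 libraries held 1514, 1514 and 1535 normalized counts with DMSO and 1277, 1268 and 1246 with squamocin, a fall of 0.27 on the log2 scale with no overlap (SE 0.046, adjusted p = 0.000157). In SCC15 it was scarce, with 17.9, 20.6 and 14.8 against 11.6, 17.1 and 7.47, and the groups overlapped. The log2 fold change there was -0.58 with a 95% interval from -1.43 to 0.27 (adjusted p = 0.200), and -0.30 without squamocin replicate 3. DLL1 overlaps the gene FAM120B on the opposite strand, which had 563 to 1157 normalized counts in SCC25 and 208 to 752 in SCC15, and the strand setting of the counting is not given in the sources used here, so reads of the shared stretch cannot be told apart. Within the ligands of SCC25, the share of JAG2 went from 55.2% ± 0.12 to 37.7% ± 0.87, that of DLL1 from 27.8% ± 0.042 to 39.1% ± 1.7 and that of JAG1 from 17.0% ± 0.077 to 23.2% ± 0.88. In SCC15 JAG1 led throughout, with 70.0% ± 1.7 and 74.5% ± 4.7, and these ranges overlapped. The shares are of JAG1, JAG2 and DLL1 alone. They leave out other ligands such as DLL3, which had 94.3 ± 19 and 161 ± 40 normalized counts in SCC15, more than DLL1.

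Of the targets, HES1 and HES4 rose in both lines. HES1 (ENSG00000114315, chromosome 3, 194136145 to 194138732, plus strand) encodes a transcriptional repressor and is the standard readout of Notch signaling, although other pathways also switch it on. In SCC25 it had 696, 702 and 742 normalized counts with DMSO and 3508, 3349 and 3437 with squamocin. The squamocin libraries were tightly grouped and far above DMSO, and HES1 rose by 2.27 on the log2 scale (SE 0.048, adjusted p = 9.61e-13), or 4.81-fold. In SCC15 it had 690, 582 and 656 with DMSO and 1706, 1709 and 2479 with squamocin. All squamocin libraries again exceeded all DMSO libraries, the rise was 1.59 (SE 0.16, adjusted p = 0.000184) or 3.01-fold, and it was 1.41 without replicate 3. HES1 passed the threshold under every alternative run in both lines, with equal library totals giving 1.09 in SCC15 and 2.06 in SCC25.

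HES4 (ENSG00000188290, chromosome 1, 998962 to 1000172, minus strand) encodes a related repressor that mice lack. In SCC15 it had 1305, 958 and 1052 normalized counts with DMSO and 4287, 5074 and 9883 with squamocin. Replicate 3 held more than the other libraries of its group together, and the others still exceeded every DMSO library. The SCC15 rise of HES4 was 2.45 in log2 units (SE 0.30, adjusted p = 0.000405), or 5.46-fold, and by 2.09 without replicate 3. In SCC25 it had 1161, 1105 and 1084 with DMSO and 3851, 3720 and 3568 with squamocin, a rise of 1.73 (SE 0.048, adjusted p = 1.00e-11) or 3.32-fold. Of all genes tested, 98.4% had a lower log2 fold change than HES4 in SCC15 and 95.1% in SCC25, and for HES1 these shares were 95.2% and 97.5%.

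The remaining targets, NRARP and HEY1, changed less than HES1 and HES4 in SCC25 and were scarce in SCC15. NRARP (ENSG00000198435, chromosome 9, 137300482 to 137302251, minus strand) encodes a small protein that binds the Notch complex and limits it. NRARP in SCC25 had 907, 978 and 844 normalized counts with DMSO and 1061, 1094 and 1173 with squamocin, without overlap, a rise of 0.29 on the log2 scale (SE 0.065, adjusted p = 0.00144). The difference at equal library totals was 0.080 and did not pass. In SCC15 NRARP was scarce, at 8.53, 11.9 and 24.4 against 13.9, 21.7 and 23.6, with overlapping groups and a log2 fold change of 0.47 whose 95% interval ran from -0.53 to 1.47 (adjusted p = 0.365). It was 0.33 without squamocin replicate 3. HEY1 (ENSG00000164683, minus strand of chromosome 8) encodes a Hairy-related repressor. HEY1 in SCC25 had 26.6, 33.3 and 15.0 normalized counts with DMSO and 36.9, 36.4 and 43.3 with squamocin. The groups were separate but close, and the rise of 0.68 (SE 0.29, adjusted p = 0.0486) was lost in edgeR (adjusted p = 0.0590), in DESeq2 (adjusted p = 0.0966) and under most other alternatives. In SCC15 it had 2.56, 3.95 and 6.98 against 6.96, 5.70 and 14.9, which was too low to test.

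The response differed between the lines for 4 of the 9 members tested in both, where 52.2% of the 14454 genes did. With equal library totals 2396 genes responded higher in SCC15 and 5452 lower, in place of 3779 and 3761. The difference is the log2 fold change in SCC15 minus that in SCC25 and still depends on the scaling of the treatments within each table. HES1 rose less in SCC15, with a difference of -0.67 (SE 0.17, adjusted p = 0.00569). NOTCH2 fell in SCC15 and not in SCC25, with a difference of -0.84 (SE 0.26, adjusted p = 0.0174). JAG1 differed by 0.62 (SE 0.14, adjusted p = 0.00234), from 0.31 in SCC15, which did not itself pass, and -0.31 in SCC25. JAG2 differed by 1.33 (SE 0.14, adjusted p = 7.73e-06), from 0.018 in SCC15 and -1.31 in SCC25. Without squamocin replicate 3 of SCC15, HES1 differed by -0.85, NOTCH2 by -0.52, JAG1 by 0.75 and JAG2 by 1.24, all past the threshold. The JAG1 difference was 0.33 and did not pass with equal library totals. For NOTCH3 the difference was -0.53 with a 95% interval from -1.42 to 0.36, and for DLL1 -0.31 with an interval from -0.97 to 0.34, so neither passed. Both passed without squamocin replicate 2 of SCC15, with -1.01 for NOTCH3 (adjusted p = 0.000283) and -0.58 for DLL1 (adjusted p = 0.0495). HES4 differed by 0.72 with an interval from 0.022 to 1.41 (adjusted p = 0.0777), which did not pass. The HES4 difference passed in DESeq2 (0.79, adjusted p = 0.0319). It also passed without squamocin replicate 1 (0.96, adjusted p = 0.0121) or 3 (0.36, adjusted p = 0.0179) of SCC15. NOTCH1 differed by 0.53 (adjusted p = 0.0964), and by 0.81 (adjusted p = 7.83e-06) without squamocin replicate 3 of SCC15.

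**Figure D3:**
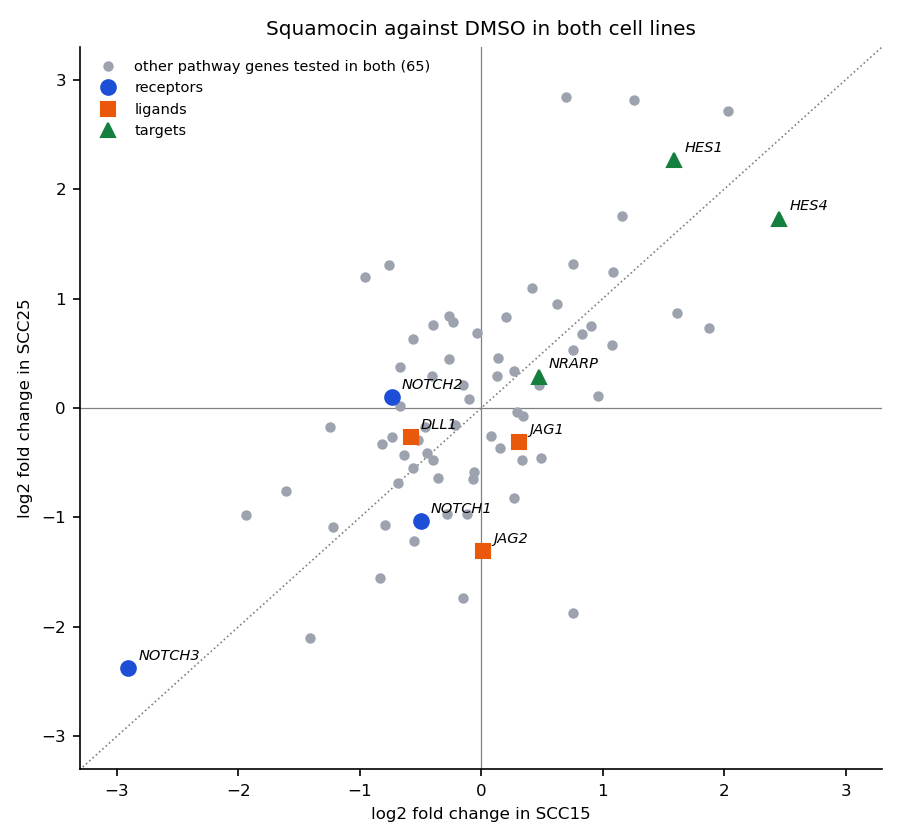
Log2 fold change in SCC15 (horizontal) against SCC25 (vertical) for the 9 members tested in both lines, colored by role, and for 65 other genes of the pathway in grey, with the dotted line marking equal change. NOTCH3 lies at the lower left (-2.91 and -2.38), HES1 (1.59 and 2.27) and HES4 (2.45 and 1.73) lie at the upper right, and JAG2 lies below the origin (0.018 and -1.31).

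Ordered by level per kilobase within each line, HES4 led the members in all 4 groups. In SCC25 with DMSO the order was HES4, JAG2, NOTCH3, NRARP, DLL1, HES1, JAG1, NOTCH1, NOTCH2 and HEY1, with means from 997 per kilobase for HES4 to 6.49 for HEY1, and NOTCH1 and NOTCH2 alone overlapped as neighbors. With squamocin the SCC25 order became HES4, HES1, NRARP, DLL1, JAG2, NOTCH2, JAG1, NOTCH3, NOTCH1 and HEY1. HES1 moved from the middle to behind HES4, at 1666 per kilobase against 3315, and NOTCH3 dropped to 120 from 620. Overlapping neighbors were DLL1 with JAG2 and NOTCH2 with JAG1. In SCC15 with DMSO the order was HES4, NOTCH2, HES1, JAG1, JAG2, NOTCH1, NRARP, NOTCH3, DLL1 and HEY1, from 987 to 1.17 per kilobase, with JAG2 and NOTCH1, and NRARP and NOTCH3, overlapping. With squamocin NOTCH3 came last at 0.867 per kilobase and overlapped HEY1, which overlapped DLL1. The tables were scaled separately, so levels are ordered only within a line. HEY1 per kilobase is uncertain, since nearly its whole span counts as exon in the union of its transcripts.

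The other genes of the pathway were read from lists by function, 77 genes in all, and are given with counts and medians beside those of all genes tested. Of 67 tested in SCC15, 22 were higher (32.8%, against 30.9% of all genes tested) and 24 lower (35.8%, against 30%), with a median log2 fold change of -0.12. Of 68 tested in SCC25, 31 were higher (45.6%, against 38.3%) and 28 lower (41.2%, against 38.5%), with a median of -0.013. Without squamocin replicate 3, SCC15 gave 28 higher and 28 lower of 68 (41.2% each, against 38.0% and 37.6% of all genes tested). Scaled to equal library totals, SCC15 gave 9 higher (13.4%, against 14.8% of all genes tested) and 37 lower (55.2%, against 50.5%) of 67. SCC25 gave 26 higher (38.2%, against 30.4%) and 34 lower (50%, against 47.4%) of 68. The counts of the single lists are to be read against these shares of all genes.

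Of 9 receptor cleavage genes tested, 5 were lower (55.6%, against 30% of all genes) and 2 higher in SCC15 with a median of -0.22, and 7 lower (77.8%, against 38.5%) and 1 higher in SCC25 with a median of -0.46. Without squamocin replicate 3, 5 were lower and 4 higher in SCC15 (44.4%, against 38.0% of all genes higher). With equal totals 5 were lower (55.6%, against 50.5% of all genes) and 0 higher. PSEN2, a catalytic subunit of γ-secretase, fell by 0.64 and 0.43. PSENEN, a further subunit of the complex, rose instead, by 0.90 in SCC15 and 0.75 in SCC25, though the SCC15 value at equal totals was 0.41 and did not pass. ADAM10, the protease of the first cut, fell by 0.22 (adjusted p = 0.0383) and 0.15 (adjusted p = 0.0134). In SCC15 without squamocin replicate 3, PSEN2 gave -0.70, PSENEN 0.66 and ADAM10 -0.22, all past the threshold.

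The nuclear activation complex was divided. Of 9 tested in SCC15, 3 were higher (33.3%, against 30.9% of all genes tested) and 5 lower (55.6%, against 30%), with a median of -0.56. Of 9 in SCC25, 4 were higher (44.4%, against 38.3%) and 4 lower (44.4%, against 38.5%), with a median of -0.26. The SCC15 counts were the same without squamocin replicate 3. With equal totals 0 were higher and 6 lower (66.7%, against 50.5% of all genes). RBPJ, the DNA-binding partner of the receptor, had 951 ± 8.2 and 1274 ± 108 normalized counts in SCC15 and rose by 0.42 (adjusted p = 0.00562), and had 1138 ± 54 and 2434 ± 172 in SCC25 and rose by 1.09 (adjusted p = 3.64e-09). The RBPJ response differed between the lines by -0.68 (adjusted p = 0.000253), and the SCC15 value at equal totals was -0.079, which did not pass. MAML1, a Mastermind-like coactivator, fell by 0.56 in SCC15 and rose by 0.63 in SCC25, a difference of -1.20 (adjusted p = 1.24e-06). MAML3, a relative of MAML1, fell by 1.94 and 0.98, and the acetyltransferase EP300 fell by 1.22 and 1.09. The SCC15 values without squamocin replicate 3 were 0.49 for RBPJ, -0.50 for MAML1, -1.82 for MAML3 and -0.85 for EP300, all past the threshold.

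Among the receptor trafficking and turnover genes of SCC15, 5 of 10 tested were higher (50%, against 30.9% of all genes tested) and 1 lower (10%, against 30%), with a median of 0.21. Of 11 in SCC25, 7 were higher (63.6%, against 38.3%) and 2 lower (18.2%, against 38.5%), with a median of 0.45. In SCC15 they were 6 higher and 4 lower without squamocin replicate 3. With equal totals 1 was higher (10%, against 14.8% of all genes) and 5 lower (50%, against 50.5%), with a median of -0.29. FBXW7, the ubiquitin ligase subunit that marks the Notch intracellular domain for destruction, rose by 0.62 in SCC15 (adjusted p = 0.00196) and 0.95 in SCC25 (adjusted p = 5.09e-08). Scaling to equal totals gave 0.13 in SCC15, which did not pass. The Deltex genes split, since DTX4 fell by 1.61 and 0.76 while DTX2 rose by 0.76 and 1.32 and DTX3 rose by 1.07 and 0.58. DTX2 in SCC15 did not pass at equal totals either (0.26). When squamocin replicate 3 was left out, FBXW7 gave 0.70 in SCC15, DTX4 -1.59, DTX2 0.70 and DTX3 1.09. The corepressors showed no common direction. In SCC15 2 of 14 were higher (14.3%, against 30.9% of all genes tested) and 4 lower (28.6%, against 30%), with a median of -0.13. Of 13 in SCC25, 5 were higher (38.5%, against 38.3%) and 6 lower (46.2%, against 38.5%), with a median of -0.076. Leaving out that library made 5 corepressors higher and 4 lower in SCC15. Equal totals made 1 higher (7.14%, against 14.8% of all genes) and 9 lower (64.3%, against 50.5%). CIR1, a corepressor of RBPJ, rose by 0.83 and 0.68, whereas L3MBTL3, which also binds RBPJ, fell by 0.56 and 0.55 and KDM5A, a histone demethylase, fell by 0.45 and 0.41. Without that library these were 0.66, -0.49 and -0.32 in SCC15.

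Of the receptor glycosylation genes, 1 of 8 tested was higher in SCC15 (12.5%, against 30.9% of all genes tested) and 5 lower (62.5%, against 30%), with a median of -0.47. Of 9 in SCC25, 4 were higher (44.4%, against 38.3%) and 4 lower (44.4%, against 38.5%), with a median of -0.65. RFNG, a Fringe glycosyltransferase, rose by 1.62 and 0.87. XXYLT1, a xylosyltransferase, fell by 0.83 and 1.55, and GXYLT1, which adds the preceding xylose, fell by 0.76 in SCC15 and rose by 1.31 in SCC25, a difference of -2.07 (adjusted p = 4.98e-07). Of the ligand endocytosis genes 2 of 4 were higher (50%) and 1 lower (25%) in SCC15, with a median of 0.22. In SCC25 3 of 4 were higher (75%, against 38.3% of all genes), with a median of 0.80. At equal totals 1 was higher (25%, against 14.8% of all genes) and 2 were lower (50%, against 50.5%) in SCC15. NEURL1, a ubiquitin ligase of ligands, rose from 599 ± 32 to 975 ± 57 normalized counts in SCC15 (log2 fold change 0.70) and from 75.7 ± 6.2 to 550 ± 64 in SCC25 (2.84), and at equal totals the SCC15 value was 0.20 and did not pass. MIB1, another such ligase, fell by 0.27 in SCC15 and rose by 0.84 in SCC25. The counts of both lists in SCC15 were the same without squamocin replicate 3, which gave 1.43 for RFNG, -0.80 for XXYLT1, -0.76 for GXYLT1, 0.65 for NEURL1 and -0.19 for MIB1.

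NOTCH4, the further receptor, had 12.7 ± 4.2 and 7.54 ± 2.7 normalized counts in SCC15 (log2 fold change -0.69, adjusted p = 0.205, and -0.90 without squamocin replicate 3, which did not pass either, but -1.14 with equal totals, which did) and fell from 69.5 ± 6.8 to 45.9 ± 19 in SCC25 (adjusted p = 0.0442). DLL4 fell by 0.96 in SCC15, where it had 19.4 ± 4.5 with DMSO, and rose by 1.20 in SCC25, where it had 14.0 ± 4.4. The SCC15 value of DLL4 without squamocin replicate 3 was -0.92 and passed. DLL3, a divergent Delta-like protein, rose in SCC15 from 94.3 ± 19 to 161 ± 40 normalized counts (log2 fold change 0.76, adjusted p = 0.0191), or by 0.56 without that library, but did not pass with equal totals (0.26), and it was too low to test in SCC25. DLK2, a Delta-like relative, fell in SCC25 from 482 ± 15 to 234 ± 24 (log2 fold change -1.05, adjusted p = 2.43e-07), and in SCC15 it had 13.5 ± 3.0 and 5.49 ± 0.45, a mean too low to test, except without replicate 3, where it fell by 1.08. Of the further ligands, 1 of 2 tested was higher and 1 lower in each line, with medians of -0.10 and 0.077, and 1 of 3 was higher and 2 lower in SCC15 without squamocin replicate 3.

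Further HES and HEY factors did not follow HES1 and HES4 as a group. In each line 2 of 4 tested were higher (50%) and 1 lower (25%), with medians of 0.53 and 0.41. Of all genes tested, 30.9% were higher and 30% lower in SCC15, and 38.3% and 38.5% in SCC25. HES6 rose by 1.87 in SCC15 and 0.73 in SCC25, and HES7 rose from 49.0 ± 3.2 to 116 ± 44 normalized counts in SCC15 and by 1.75 in SCC25, whereas HES2 fell by 1.41 and 2.10. HES2 had 20.4 ± 3.8 normalized counts with DMSO in SCC15 and 298 ± 37 in SCC25. Leaving out squamocin replicate 3 gave in SCC15 1.62 for HES6, 0.87 for HES7 and -1.34 for HES2, all past the threshold, with the same counts.

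Other genes commonly given as Notch targets numbered 5. In SCC15 3 were higher (60%, against 30.9% of all genes tested) and 1 lower (20%, against 30%), with a median of 0.75. SCC25 had 3 higher (60%, against 38.3%) and 2 lower (40%, against 38.5%), with a median of 0.83. CDKN1A, which encodes the cell cycle inhibitor p21, rose by 1.25 in SCC15 and 2.81 in SCC25. SNAI2, a repressor of epithelial genes, rose by 1.09 and 1.25. MYC, a growth regulator, rose from 622 ± 12 to 1052 ± 103 normalized counts in SCC15 (log2 fold change 0.75, adjusted p = 0.000518) and fell from 6439 ± 141 to 1762 ± 78 in SCC25 (-1.87, adjusted p = 2.65e-12), a difference of 2.62 (adjusted p = 4.28e-09). The SCC15 value of MYC was 0.26 and did not pass with equal library totals. KRT10, a keratin of the spinous layer, rose by 2.04 and 2.71, and it was the only one of 3 spinous markers tested, since KRT1 and IVL were below the limit or not listed. Leaving out that SCC15 library gave 1.19 for CDKN1A, 1.02 for SNAI2, 0.78 for MYC and 1.76 for KRT10, and the counts were the same.

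**Figure D4:**
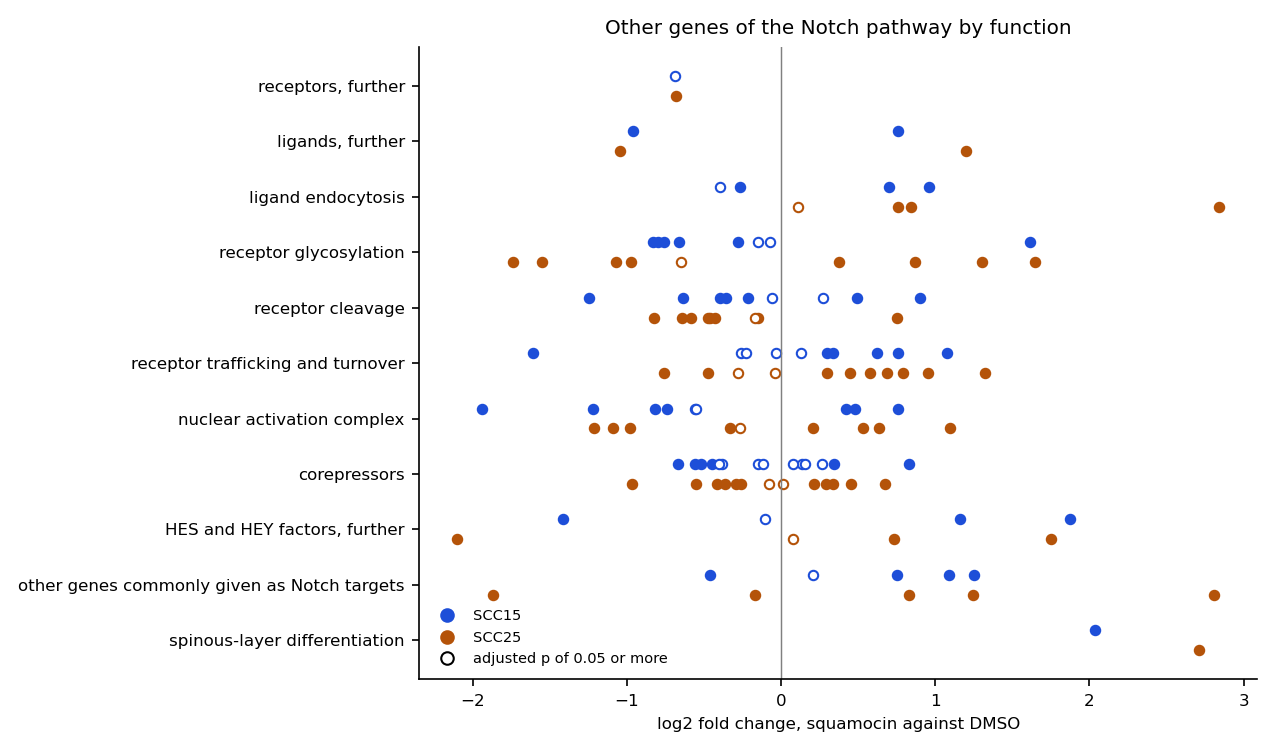
Log2 fold change of squamocin against DMSO for each tested gene of the pathway lists, in blue for SCC15 and orange for SCC25, filled where the adjusted p was under 0.05. The receptor cleavage row lies mostly left of 0 (medians -0.22 and -0.46), while the nuclear activation complex and the corepressors spread on both sides.

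The genes whose profile over the 12 libraries lay closest to that of 3 members were found by the root mean square difference of log2 values, each centered on the mean of DMSO in its line, among protein-coding genes with a mean of at least 100 in both lines. The nearest to NOTCH3 were DOLK (0.36), INTS5 (0.37) and ZNF324 (0.40), where the median candidate lay at 2.00. NOTCH3 itself lay below the mean of 100 in SCC15, at 60.1 with DMSO and 8.14 with squamocin. The SCC15 part of its profile thus rests on few reads. The nearest to JAG2 were FAM210B (0.082), UBTF (0.097) and UNC93B1 (0.10), with a median of 0.80. The nearest to HES4 were NUPR1 (0.18), GADD45A (0.19) and CDK2AP2 (0.20), with a median of 1.49. The candidates numbered 9698 for NOTCH3 and 9697 for the other two.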

How the data were processed

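RNA-seq of SCC15 and SCC25 cells after 24 h with squamocin or DMSO was analysed, with 3 libraries per treatment and line. Per the labels, the authors aligned reads to GRCh38 with HISAT2 2.0.5 and counted them per gene with featureCounts 1.5.0-p3. The strand setting and the annotation release are not given in the sources used here. The deposited signal is the read count divided by 1 size factor per library, set by the authors within each line. Multiplying back by the factor gave whole reads (within 0.01) for 100% of values, 16665563 to 22748845 per library. That depth limits the precision of rare members. At most 3 reads counted as a floor, which covers counting error only. The deposited fold changes and p-values of the authors' own comparison were not used.

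The members and the pathway, marker and motif lists were chosen with earlier results of these data known. Genes averaging at least 10 normalized counts were tested with limma 3.58.1 (R 4.3.3, eBayes with a trend) on log2 of the count plus 1, two-sided, with Benjamini-Hochberg adjustment over all genes tested, and the difference between lines as a contrast of the 4 group means. All 10 members were named, with up to 3 genes per pathway list by mean absolute log2 fold change among those past the threshold in both lines, and RBPJ, MAML1, ADAM10 and FBXW7 whatever their values. One gene that the rule names is not reported here. NOTCH4, DLL3, DLK2, NOTCH2NLA, FAM120B and marker genes were named after their values were seen. Intervals cover 95%. Alternatives were pseudocounts of 0.1 and 10, no filter, at least 10 in every library, TMM factors, equal library totals, DESeq2 1.42.0 and edgeR 4.0.16 (both on whole reads), a block for the replicate number, leaving out single libraries, and an absolute log2 fold change above 1. Equal library totals without squamocin replicate 3, and the motif TGGGAA, were added after the data were seen. The scripts were tested on simulated data. Exonic lengths were from GENCODE release 44 and promoters from RefSeq.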

Additional observations from a re-analysis of the deposited data

Results flagged for a closer look

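The response of 4 members differed between the cell lines by the test of the difference itself, where 52.2% of all genes tested in both lines did so. The log2 fold change in SCC15 minus that in SCC25 was -0.67 for HES1, which rose in all 3 squamocin libraries of both lines. For NOTCH2 the difference was -0.84. With the authors' size factors its 3 squamocin libraries lay below every DMSO library in SCC15 and above every DMSO library in SCC25. With equal library totals the NOTCH2 log2 fold change in SCC25 was -0.11 and passed, so its sign there depended on scaling. For JAG1 the difference was 0.62. JAG1 lay above every DMSO library in SCC15 and below in SCC25, and its difference did not pass with equal library totals. For JAG2, which overlapped between treatments in SCC15 and fell in SCC25, the difference was 1.33.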

How the results depend on the processing

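Of the values of the members under alternatives, 123 of 141 in SCC15, 144 of 160 in SCC25 and 176 of 186 for the difference between lines kept their direction and their side of the threshold. HES1, HES4 and NOTCH3 passed in both lines under every alternative that could test them. With equal library totals, genes called in SCC15 became 2357 higher and 8033 lower, or 9277 lower without squamocin replicate 3 as well, and genes responding higher in SCC15 than in SCC25 became 2396. The members called lower in SCC15 became 5 with equal totals, 4 with equal totals and without that library, 1 with at least 10 in every library, 1 above an absolute log2 fold change of 1, and 1 to 3 with single libraries left out. It was 1 without any single DMSO library, where NOTCH2 no longer passed, and 3 without squamocin replicate 1 or 3, where NOTCH1 passed. The genes called lower in SCC15 moved too, from 4773 of 15902. They were 3612 to 3649 of 15837 to 15852 without a DMSO library, and 3924 of 13697 with at least 10 in every library. Without squamocin replicate 1 they were 4643 of 15926, and without replicate 3 they were 6022 of 16001. The members called higher in SCC25 became 2 with equal totals, with or without squamocin replicate 3, and 2 above an absolute log2 fold change of 1, where 3 members remained lower. That limit left 1998 higher and 2320 lower genes in SCC15, 2293 and 2813 in SCC25, and 1585 and 1527 for the difference. Members responding higher in SCC15 than in SCC25 numbered 1 with equal totals and 1 above that limit, and 2 to 4 with single libraries left out, with 4 without squamocin replicate 3 of SCC15, where NOTCH1 and HES4 also passed. Members responding lower numbered 0 above that limit and 2 to 4 with libraries left out, with 4 without squamocin replicate 2 of SCC15, where NOTCH3 and DLL1 also passed. Over these leave-outs 3375 to 4705 of all genes responded higher and 3401 to 4842 lower, both most without squamocin replicate 3 of SCC15. Without squamocin replicate 2 of SCC15 these were 3753 and 3698 of 14486 genes.

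Directions reversed for JAG1 in SCC15 with equal totals (-0.19), for JAG2 in SCC15 with TMM factors (-0.025), equal totals (-0.48), edgeR (-0.053), DESeq2 (-0.0022), and equal totals without squamocin replicate 3 (-0.48), with -0.074 to 0.10 when single libraries were left out. They also reversed for NRARP in SCC15 with equal totals and without that library (-0.055), for NOTCH2 in SCC25 with equal totals (-0.11, or -0.081 without squamocin replicate 3), for the NOTCH3 difference with a pseudocount of 10 (0.38), and for the NRARP difference with equal totals (-0.076) and in the leave-outs (-0.12 to 0.58). Apart from the scaling itself, the cause was not tested.

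Replicates with the same number did not deviate together, with correlations from -0.051 to 0.0078. With 3 libraries per group, and squamocin replicate 3 of SCC15 apart from the others, this cannot decide whether the numbers pair the libraries. With the replicate block, 4665 genes were higher and 4451 lower in SCC15, 6294 and 6317 in SCC25, and 3564 and 3525 for the difference, and no call of a member changed. With 3 libraries per group, depth limits HEY1, NRARP and DLL1 in SCC15 and NOTCH3 there with squamocin, each resting on at most 28 reads per library.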
